A study of Mus musculus with 24 samples.

Results

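The genes described are 40 heat shock proteins and cochaperones, taken by symbol from a table of 56791 genes, in which all 40 were found. They comprise 21 genes of the cytosol, 4 subunits of the cytosolic chaperonin TRiC, the heat shock factor genes Hsf1 and Hsf2, 3 mitochondrial chaperones and 10 genes of the endoplasmic reticulum (ER). RNA was sequenced in bulk from regulatory T cells (Tregs, the suppressive T cells defined by the transcription factor Foxp3) and from B cells, both sorted from B16-F0 tumours or from the lymph nodes draining them, called nodal cells below. B16-F0 is a line of pigmented mouse melanoma. All mice carried Foxp3-Cre, a recombinase driven by the Foxp3 gene, which is active in Tregs and not meant to act in B cells. Mice labelled WT carried nothing further, and mice labelled KO also carried Appl2 f/f, loxP-flanked alleles of the endosomal adaptor gene Appl2. Cell type, tissue and genotype label divide the 24 libraries into 8 groups, each of 3. The labels used here give neither the age of the mice nor whether each library is a separate animal. The p-values measure the spread between these libraries, which may be technical.

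Libraries held 6245822 to 16239055 counts, with 18025 to 21217 genes detected. The targeted gene Appl2, given in CPM (counts scaled by library total), read 50.8, 59.0 and 52.5 CPM in tumour Tregs labelled WT and 25.1, 20.6 and 27.1 CPM in those labelled KO. In nodal Tregs it read 26.3, 22.1 and 18.6 CPM under the WT label. Under the KO label it read 26.9, 22.9 and 28.5 CPM there, which was not lower. The counts cover the whole gene, and the loxP-flanked part of Appl2 was not read separately. In B cells the recombinase is not meant to act. There Appl2 ran from 20.9 to 53.7 CPM in libraries labelled WT and from 10.7 to 17.7 CPM in those labelled KO. The genotypes are therefore given as labels throughout, and every direction below is one between libraries labelled KO and libraries labelled WT. Foxp3 ran from 275 to 475 CPM over the Treg libraries and from 6.60 to 12.3 CPM over the B cell libraries. The 10 melanoma markers summed to 2809 to 3020 CPM in tumour Tregs labelled WT and to 49.5 to 60.4 CPM in those labelled KO. The 10 B cell markers summed to 48.7 to 50.5 CPM in nodal Tregs labelled WT and to 220.2 to 237 CPM in those labelled KO. These differences in other cells' markers moved with the genotype label, and their part in the results below was not tested.

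Heat shock proteins hold unfolded proteins, help them fold and hand them on for repair or degradation. In the cytosol HSP70 proteins bind exposed hydrophobic stretches, J-domain proteins of the HSP40 family deliver the substrates, and HSP110 proteins exchange the nucleotide. HSP90 with its cochaperones finishes signalling proteins such as kinases and steroid receptors. Proteotoxic stress frees heat shock factor 1 to bind heat shock elements in front of these genes. Unfolded protein in the ER acts instead through the sensors IRE1, PERK and ATF6 on ER stress elements and related sites in front of ER chaperone genes. The comparison of compartments is therefore given beside that of single genes, as measurements of each.

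The promoters of the members are shown first, since the compartments differed in the elements they hold. RefSeq promoters (assembly GRCm38.p6, 250 bases before to 50 after a gene's start) were matched for 33 of the 40 members. The heat shock element was searched as 3 alternating units of GAA and its reverse complement, 2 bases apart, that is GAANNTTC with a further unit on either side, on both strands. It was present in 179 of 27025 genes with a promoter (0.662 %), in 3 of 17 cytosolic members, in 2 of 2 mitochondrial members and in 0 of 9 ER members. The windows of Hspa1a, Hspa1b, Dnajb1 and Bag3 held no match to this strict spelling, which says nothing of other spellings or of more distant sequence. Hspa8, Hsp90aa1, Hsp90ab1 and St13 had no promoter to search. The mitochondrial pair Hspd1 and Hspe1 face away from each other and share the element, which lies 144 bases before the start of Hspd1 and 89 before that of Hspe1. Capitals mark the matched letters, and each sequence runs 5′ to 3′ on the gene's strand. Windows touching an annotated exon are kept to 30 bases at most.
Hspe1 (chr1:55088053-55088082, plus strand): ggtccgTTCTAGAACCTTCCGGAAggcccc
Hspd1 (chr1:55088053-55088082, minus strand): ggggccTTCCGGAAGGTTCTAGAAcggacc
Hsph1 (chr5:149636280-149636308, minus strand): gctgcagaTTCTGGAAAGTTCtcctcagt
Dnajb6 (chr5:29735844-29735872, plus strand): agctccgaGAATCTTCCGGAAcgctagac
Chordc1 (chr9:18292260-18292288, plus strand): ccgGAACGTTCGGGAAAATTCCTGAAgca

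The ER stress element was searched as CCAAT, any 9 bases, then CCACG, on both strands, and the letters of the 2 motifs do not overlap. It was present in 37 of 27025 genes (0.137 %), in 6 of 9 ER members and in 0 of 17 cytosolic members. These 6 are shown because their values, given further on, moved in different directions.
Hspa5 (chr2:34772020-34772048, plus strand): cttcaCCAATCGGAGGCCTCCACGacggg
Calr (chr8:84847055-84847113, minus strand): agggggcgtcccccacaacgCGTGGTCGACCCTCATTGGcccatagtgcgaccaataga
Canx (chr11:50325780-50325838, minus strand): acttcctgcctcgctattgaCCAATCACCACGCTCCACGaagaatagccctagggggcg
Pdia6 (chr12:17266471-17266529, plus strand): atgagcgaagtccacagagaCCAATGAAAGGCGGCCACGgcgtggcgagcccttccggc
Dnajc3 (chr14:118937807-118937865, plus strand): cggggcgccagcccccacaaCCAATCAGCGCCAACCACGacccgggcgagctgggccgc
Hsp90b1, with 2 matches (chr10:86705513-86705676, minus strand): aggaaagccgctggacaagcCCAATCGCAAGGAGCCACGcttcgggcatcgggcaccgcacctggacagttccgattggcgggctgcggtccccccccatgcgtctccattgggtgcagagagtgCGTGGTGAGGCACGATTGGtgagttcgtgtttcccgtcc
No match to this spelling was present in the windows of Dnajb9, Dnajb11 and Pdia4, which says nothing of other spellings or of more distant sequence. A match is a description of the letters and not a measured binding site.

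All 40 members passed the filter on low counts in every comparison. A member was called when its adjusted p in edgeR's quasi-likelihood test was under 0.05, with Benjamini-Hochberg adjustment over all genes tested. In tumour Tregs 28 of 40 members were higher and 5 lower under the KO label, against 27.3 % and 27.2 % of all 14442 genes tested. In nodal Tregs 20 were higher and 2 lower, against 13.8 % and 11.5 % of genes. In tumour B cells 33 were higher and 2 lower, against 21.3 % and 18.8 %, and in nodal B cells 16 were higher and 3 lower, against 11.0 % and 10.1 %. The members' median log2 fold changes were 0.39, 0.14, 0.79 and 0.12 in the order given, where the medians of all genes were -0.02, -0.01, -0.03 and -0.01. Higher calls thus outnumbered lower ones among the members in each of the 4 comparisons, and tumour B cells had the most. In the same tumour B cell libraries the 10 melanoma markers summed to 759.9 to 878 CPM under the WT label and to 42.3 to 45.3 CPM under the KO label. The 10 macrophage and monocyte markers ran from 277 to 293 CPM and from 89.9 to 103.5 CPM, and the 10 CD8 T and NK cell markers from 6.02 to 8.38 CPM and from 57.2 to 63.6 CPM. In tumour Tregs the CD8 T and NK cell markers summed to 45.9 to 55.6 CPM under the WT label and to 266 to 276 CPM under the KO label. None of these markers was at 0 in these groups apart from Oca2 in tumour Tregs labelled KO. Markers of other cells thus differed between labels in tumours, and their part in the members' values was not tested.

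**Figure D1:**
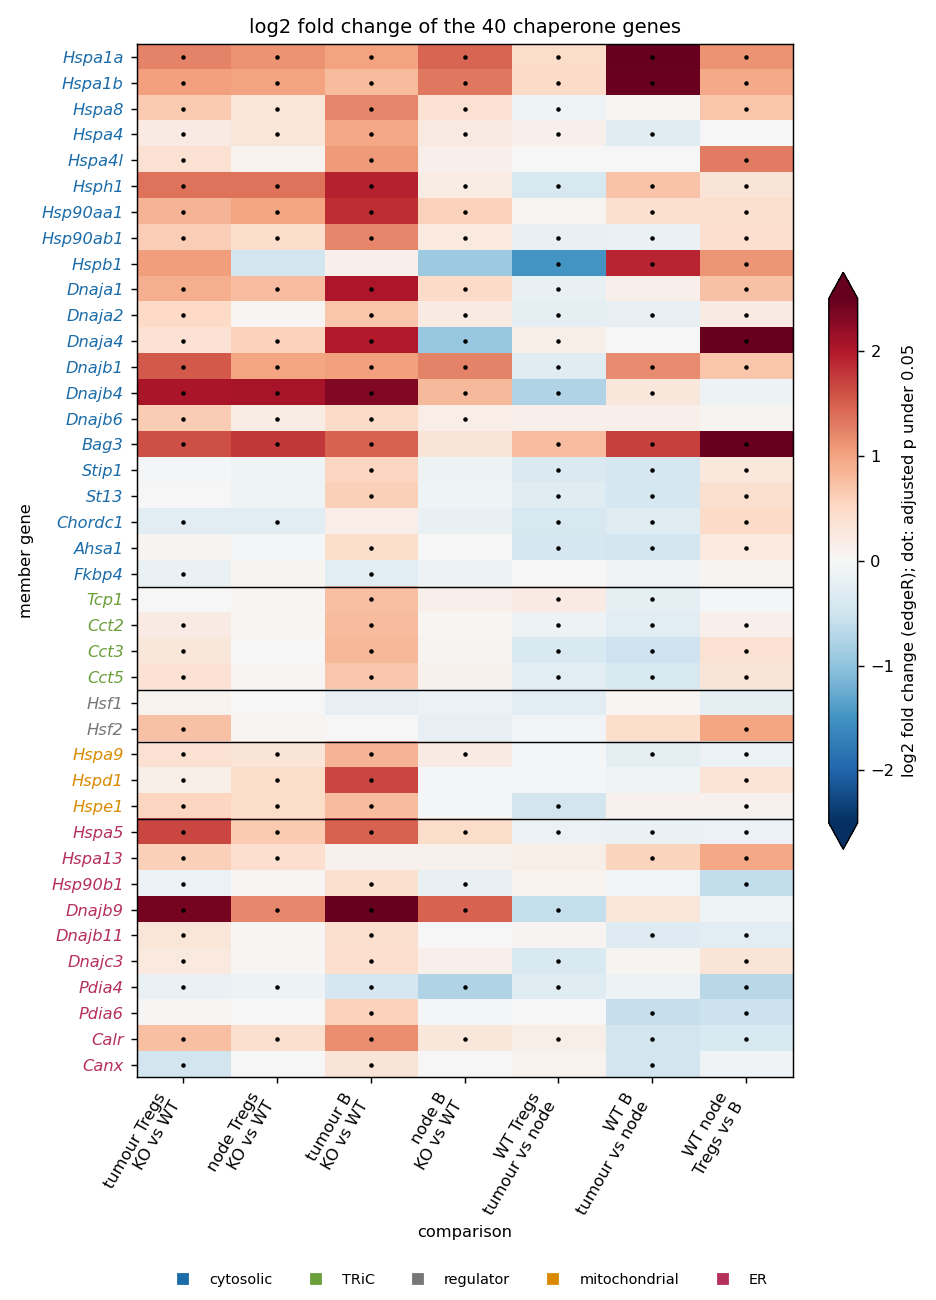
Log2 fold change of the 40 members (rows, grouped by compartment) in the comparisons (columns), with colour from lower to higher capped at 2.5 in either direction. The cytosolic rows are mostly higher under the KO label in all 4 genotype columns, whereas the ER rows hold both directions, with Dnajb9 at 2.38 and Canx at -0.46 in tumour Tregs.

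Of the 21 cytosolic members 15 were higher and 2 lower in tumour Tregs, where 27.3 % and 27.2 % of all genes were, and 13 and 1 in nodal Tregs (13.8 % and 11.5 %). In B cells 18 were higher and 1 lower in tumours (21.3 % and 18.8 %), and 12 and 1 in lymph nodes (11.0 % and 10.1 %). Their median log2 fold changes were 0.64, 0.31, 1.0 and 0.20. The 3 cytosolic HSP70 genes were higher in each of the 4 comparisons and the 6 HSP40 genes in at least 5 of 6, while of the 6 other cochaperones no more than 1 was higher outside tumour B cells.

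Hspa1a and Hspa1b encode the stress-inducible HSP70 and lie beside each other on chromosome 17, at 35188166 to 35191132 and 35175412 to 35178214 of GRCm39 on the minus strand. Their coding sequences are nearly the same, so how reads were divided between them is uncertain, and 19.0 % of the exon bases of Hspa1a lie opposite Gm20481. In tumour Tregs Hspa1a read 962, 1078 and 991 CPM under the WT label and 2389, 2304 and 2332 CPM under the KO label. Nodal Tregs read 736, 746 and 720.4 CPM and 1591, 1662 and 1569.6 CPM in that order. B cell libraries gave 2114, 1989 and 2104 CPM under the WT label and 4166, 4146 and 4192 CPM under the KO label in tumours, and 331, 338 and 342 and 939.9, 904 and 928 CPM in lymph nodes. No library labelled KO overlapped those labelled WT, and tumour B cells stood highest under either label. The log2 fold changes of Hspa1a were 1.24 ± 0.04, 1.13 ± 0.04, 1.0 ± 0.06 and 1.45 ± 0.04 (SE, edgeR adjusted p = 3.39e-25, 2.81e-19, 1.99e-08 and 1.95e-20) in tumour Tregs, nodal Tregs, tumour B cells and nodal B cells. That order is kept for 4 values below.

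Hspa1b moved alongside, at 2693, 2915 and 2694 CPM (WT label) and 5643, 5376 and 5586 CPM (KO label) in tumour Tregs and 2031, 1991 and 1904 and 3932, 4080.3 and 3907 CPM in nodal Tregs. Its B cell values were 5790.4, 5615 and 5625 and 9376, 10179 and 10227 CPM in tumours and 1061, 1031 and 1004 and 2709, 2486 and 2530.5 CPM in lymph nodes. The KO-labelled libraries were again above the WT-labelled ones everywhere, with fold changes on the log2 scale of 1.03 ± 0.04, 1.0 ± 0.04, 0.80 ± 0.06 and 1.31 ± 0.04 (largest edgeR adjusted p = 2.13e-07, in tumour B cells). Per kilobase of exon, Hspa1b stood at 2.5 to 3.24 times the level of Hspa1a over the 8 group means.

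Hspa8 encodes the constitutive HSP70 that serves folding in unstressed cells. It read 4460.4, 4352 and 4480.0 CPM (WT label) and 6630.1, 6744 and 6980.5 CPM (KO label) in tumour Tregs, and 4711, 4823 and 4753 and 6009, 5943 and 5786 CPM in nodal Tregs. In tumour B cells it read 3038, 2920.4 and 2975 and 6491, 7131 and 7378 CPM, and in nodal B cells 3064, 2888 and 2896 and 3874, 3799 and 3816 CPM. The log2 differences were 0.65 ± 0.03, 0.31 ± 0.03, 1.23 ± 0.07 and 0.37 ± 0.04 (largest edgeR adjusted p = 3.87e-08, in nodal Tregs), so the largest difference lay in tumour B cells, where that of the inducible pair lay in nodal B cells. Annotated small nucleolar RNAs lie within 6.09 % of its exon bases.

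The HSP110 genes encode large HSP70 relatives that release ADP from HSP70. Hsph1, whose window holds a heat shock element, read 298, 283 and 286 CPM (WT label) and 722, 744 and 719 CPM (KO label) in tumour Tregs and 382, 384 and 371 and 975, 996 and 964 CPM in nodal Tregs. Tumour B cells gave 483, 499.8 and 492 and 1873, 1859.9 and 1882 CPM, and nodal B cells 311, 301 and 296 and 330.1, 357 and 346 CPM. The rise under the KO label was 1.36 ± 0.04, 1.36 ± 0.04 and 1.92 ± 0.06 on the log2 scale in the first 3 comparisons but only 0.18 ± 0.05 in nodal B cells (edgeR adjusted p = 0.00585), where the nearest pair of libraries stood at 311 and 330.1 CPM without overlap. Hspa4, a constitutive HSP110 gene, rose in each comparison, by 0.21, 0.30, 0.96 and 0.22.

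Hspa4l, the scarcer HSP110 member, read 57.7, 51.1 and 58.0 CPM (WT label) and 61.6, 75.7 and 76.5 CPM (KO label) in tumour Tregs and 60.9, 58.7 and 48.6 and 59.1, 56.4 and 64.2 CPM in nodal Tregs. Among B cells it read 19.5, 21.7 and 25.4 and 42.5, 50.2 and 47.6 CPM in tumours and 22.7, 24.9 and 20.4 and 26.3, 19.7 and 28.9 CPM in lymph nodes. It passed the test in tumours, with log2 differences of 0.39 ± 0.08 (adjusted p = 1.43e-04) in Tregs and 1.06 ± 0.13 (adjusted p = 2.38e-05) in B cells by edgeR, and the lymph node groups overlapped.

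**Figure D2:**
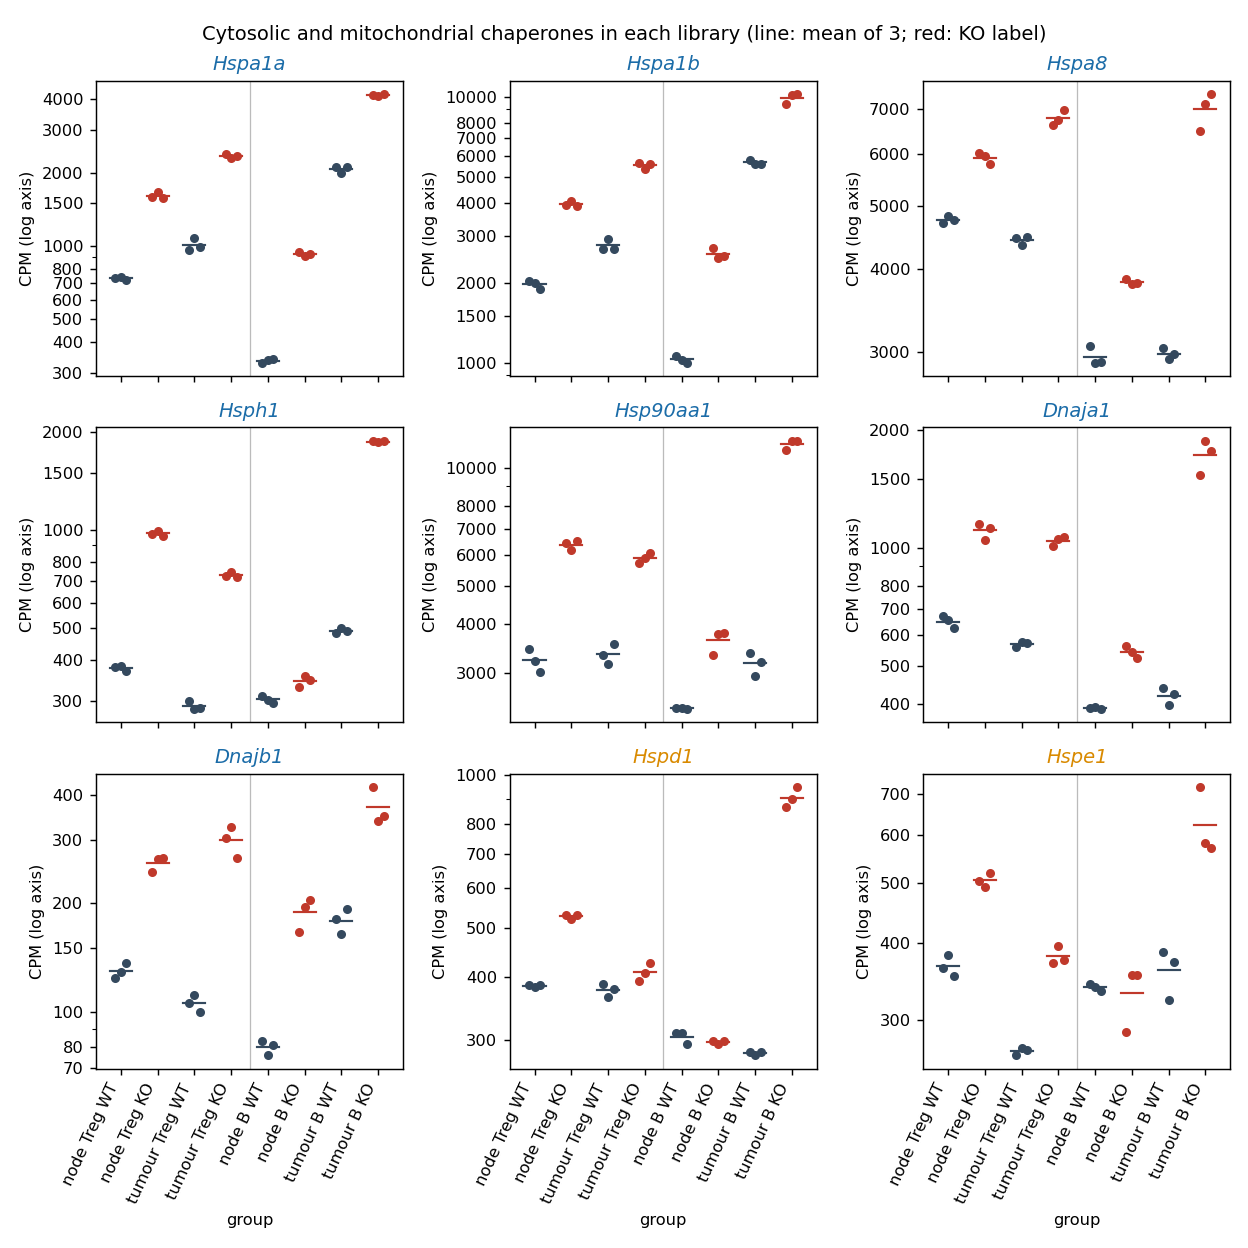
CPM (log axis) of selected cytosolic members and of the mitochondrial Hspd1 and Hspe1 in each library of the 8 groups. Points are libraries and a bar is the mean of 3. The KO-labelled points lie above the WT-labelled ones for Hspa1a, Hsph1, Hsp90aa1 and Dnajb1 in each cell type and tissue, and the gap for Hsph1 is smallest in nodal B cells.

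J-domain proteins choose what HSP70 binds. Dnajb1, the main stress-inducible partner of HSP70, read 106, 111 and 99.95 CPM (WT label) and 304, 326 and 266 CPM (KO label) in tumour Tregs, and 124, 129 and 136 and 244, 266 and 268 CPM in nodal Tregs. Tumour B cells read 180.4, 164 and 193 and 419.7, 339 and 349 CPM, and nodal B cells 83.2, 75.9 and 80.9 and 167, 196 and 205 CPM. Its log2 differences were 1.53 ± 0.06, 0.99 ± 0.05, 1.03 ± 0.09 and 1.24 ± 0.07 (largest edgeR adjusted p = 9.76e-07, in tumour B cells), and no groups overlapped. Dnaja1, a farnesylated partner of the constitutive HSP70, read 561, 576 and 574 and 1012, 1057 and 1071 CPM in tumour Tregs and 670.2, 656 and 625 and 1153, 1051 and 1127 CPM in nodal Tregs under the WT and KO labels. The B cell groups read 439.6, 399 and 425 and 1538, 1880.5 and 1773 CPM in tumours and 391, 394 and 389.7 and 565, 545 and 525 CPM in lymph nodes, so its rise was steepest in tumour B cells at 2.03 ± 0.08 (adjusted p = 3.43e-10) against 0.47 ± 0.04 (adjusted p = 2.46e-09) in nodal B cells (edgeR). Of its exon bases, 9.39 % are shared with other annotated genes.

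Dnajb4, a close relative of Dnajb1, had the largest or next largest rise of all members in the first 3 comparisons. It read 22.4, 20.5 and 23.5 CPM (WT label) and 80.2, 88.2 and 97.5 CPM (KO label) in tumour Tregs, 35.3, 36.8 and 39.3 and 155, 153 and 156 CPM in nodal Tregs, and 47.4, 45.3 and 52.2 and 225, 264 and 241 CPM in tumour B cells. The log2 differences there were 2.03 ± 0.09, 2.05 ± 0.06 and 2.32 ± 0.09, and in nodal B cells, with 40.9, 42.4 and 37.9 and 72.5, 73.6 and 68.0 CPM, the difference was 0.82 ± 0.08 (largest edgeR adjusted p = 2.73e-09, in nodal B cells). Dnaja2 rose in tumour Tregs (0.50), tumour B cells (0.70) and nodal B cells (0.20) and stood at 0.06 in nodal Tregs, where it did not pass (edgeR adjusted p = 0.364). Dnajb6, which suppresses protein aggregation, rose in each comparison, by 0.64 in tumour Tregs and 0.17 in nodal B cells. In the latter the call was lost without KO replicate 3, WT replicate 2 or WT replicate 3 (adjusted p = 0.111, 0.0566 and 0.0974).

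Dnaja4, a further J-domain gene, differed more between Tregs and B cells of lymph nodes than the other members. It read 153, 156 and 159.7 CPM (WT label) and 196, 200 and 192 CPM (KO label) in tumour Tregs and 140.3, 137 and 144 and 204, 216 and 215 CPM in nodal Tregs, but only 2.77, 4.52 and 5.58 and 18.8, 15.7 and 16.6 CPM in tumour B cells and 3.70, 3.97 and 5.43 and 2.78, 1.38 and 2.66 CPM in nodal B cells. In tumour B cells it rose by 1.98 ± 0.25 (adjusted p = 2.45e-05) and in nodal B cells it fell, at -0.94 ± 0.31 (adjusted p = 0.0271) by edgeR. That call was lost with DESeq2 (adjusted p = 0.0997) and without KO replicate 2 or WT replicate 3 (0.139 and 0.165). Its level in B cells is set beside the T cell markers there. The 10 T cell markers in B cells stood at 2.47 and 5.96 % of the level in Tregs of the same tissue and label in tumours labelled WT and KO, and Dnaja4 at 2.75 and 8.69 %. In lymph nodes the markers stood at 3.26 and 1.78 % and Dnaja4 at 3.11 and 1.07 %. The summed markers were not alike. Between labels Cd247 stood at 0.06 in tumour B cells and -0.27 in nodal B cells, and Cd3e at 3.18 and -3.18. The sum is therefore not a measure of the share of T cells in these libraries. None of the 10 markers was at 0 in B cells, and 44.1 % of the exon bases of Dnaja4 lie opposite Skic8. The part of either in these differences was not tested.

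Bag3 exchanges the nucleotide of HSP70 and routes clients to autophagy. It read 33.6, 28.9 and 28.0 CPM (WT label) and 87.0, 89.4 and 92.4 CPM (KO label) in tumour Tregs and 17.1, 15.9 and 19.6 and 59.3, 64.8 and 57.1 CPM in nodal Tregs. In B cells it was scarce, with 4.90, 5.42 and 10.7 and 15.4, 26.9 and 17.8 CPM in tumours and 1.76, 2.48 and 2.28 and 3.84, 1.72 and 2.58 CPM in lymph nodes. The rise passed in Tregs, at 1.60 ± 0.08 (adjusted p = 7.80e-19) in tumours and 1.78 ± 0.09 (adjusted p = 1.37e-15) in lymph nodes, and in tumour B cells at 1.48 ± 0.29 (adjusted p = 0.00106). The nodal B cell groups overlapped at 0.32 ± 0.35 (adjusted p = 0.588) (edgeR).

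HSP90 proteins clamp around clients late in folding. Per kilobase of exon, Hsp90ab1 was the highest of the 40 members in nodal Tregs labelled WT, at 2855 CPM per kilobase. It was followed by Hspa8 at 1107 and Hsp90aa1 at 819 CPM per kilobase. In nodal B cells labelled WT it was again highest, at 2142 CPM per kilobase, with the ER members Hsp90b1 at 723 and Calr at 691 next. Hsp90aa1, the inducible isoform, read 3328, 3148 and 3550.0 CPM (WT label) and 5715, 5894 and 6071 CPM (KO label) in tumour Tregs, and 3439, 3207 and 3018 and 6428, 6186 and 6496 CPM in nodal Tregs. In tumour B cells it read 3376, 2944 and 3196 and 11126, 11755 and 11732 CPM and in nodal B cells 2429, 2434 and 2422 and 3327, 3771 and 3792 CPM. KO-labelled libraries were above WT-labelled ones in all 4, by 0.85 ± 0.04, 0.98 ± 0.04, 1.86 ± 0.07 and 0.58 ± 0.04 on the log2 scale (largest edgeR adjusted p = 1.18e-10, in tumour B cells).

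Hsp90ab1, the constitutive isoform, read 7575, 7330.1 and 7739 CPM (WT label) and 11203, 11160.4 and 11369.6 CPM (KO label) in tumour Tregs, and 8455, 8686 and 8549 and 11692, 11772 and 11699 CPM in nodal Tregs. B cells had 5868, 5682 and 5559 and 12760.4, 13774 and 13654 CPM in tumours and 6606, 6384 and 6284 and 7288, 7679 and 7834 CPM in lymph nodes. It rose by less than the inducible isoform, with log2 differences of 0.61 ± 0.03, 0.45 ± 0.03, 1.22 ± 0.06 and 0.24 ± 0.03 (largest edgeR adjusted p = 5.95e-06, in nodal B cells). Per length, the ratio of Hsp90aa1 to Hsp90ab1 was 0.338 ± 0.0114 and 0.400 ± 0.00948 in tumour Tregs labelled WT and KO and 0.287 ± 0.0210 and 0.415 ± 0.0121 in nodal Tregs (SD, n = 3). The same ratio was 0.424 ± 0.0251 and 0.657 ± 0.00723 for B cells of tumours and 0.288 ± 0.00708 and 0.364 ± 0.0140 for those of lymph nodes. The inducible isoform thus took a larger share of cytosolic HSP90 transcripts under the KO label in each, with no ratio overlapping.

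Of the HSP90 and HSP70 cochaperones among the members, 3 were called higher in tumour B cells and in no other genotype comparison. Stip1, which holds HSP70 and HSP90 together, ran from 164 to 286 CPM over the 24 libraries and stood at -0.06, -0.10 and -0.12 in tumour Tregs, nodal Tregs and nodal B cells, without passing. It rose by 0.54 ± 0.07 (adjusted p = 3.61e-05) in tumour B cells (edgeR). St13, which stabilises the ADP form of HSP70, and Ahsa1, which stimulates the HSP90 ATPase, likewise rose in tumour B cells only among the 4 comparisons, by 0.60 and 0.44. For these 3 genes the difference between tumour and nodal B cells was itself tested, with interactions of 0.65, 0.70 and 0.44 (edgeR adjusted p = 5.46e-06, 9.56e-07 and 0.00351).

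Chordc1, an HSP90 partner whose window holds the longest run of heat shock units of the 5 shown, went the other way in Tregs. It read 81.8, 78.4 and 88.0 CPM (WT label) and 66.0, 63.5 and 68.9 CPM (KO label) in tumour Tregs and 114, 116 and 99.2 and 95.7, 88.0 and 86.8 CPM in nodal Tregs, a fall of -0.29 ± 0.07 (adjusted p = 7.76e-04) and -0.29 ± 0.06 (adjusted p = 9.71e-04) by edgeR. In B cells the values were 67.8, 61.6 and 62.1 and 71.9, 72.5 and 72.4 CPM in tumours and 76.1, 81.3 and 80.6 and 69.2, 73.8 and 67.8 CPM in lymph nodes, where neither log2 difference passed, at 0.17 and -0.18. Fkbp4, an immunophilin of steroid receptor complexes, read 203, 212 and 228 and 198, 191 and 167 CPM in tumour Tregs and 194, 192 and 189.9 and 166, 150.1 and 166 CPM in tumour B cells under the WT and KO labels. It was called lower there, at -0.18 ± 0.06 (adjusted p = 0.0115) and -0.27 ± 0.07 (adjusted p = 0.0113). The first call was lost without KO replicate 3 or WT replicate 3 (adjusted p = 0.149 and 0.0942) and the second without KO replicate 2 (0.0669).

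The small heat shock protein gene Hspb1 was close to the limit of detection, from 0.161 to 5.14 CPM over the 24 libraries, and passed in none of the 4 genotype comparisons. Values for it rest on few counts and are given where a comparison called it.

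TRiC is a ring of related subunits that folds actin and tubulin. Its 4 members were higher for 3 in tumour Tregs and 4 in tumour B cells and for none in the lymph nodes of either cell type by edgeR. There DESeq2 also called 0, and an unadjusted p under 0.05 gave 0 in Tregs and 2 in B cells, Tcp1 and Cct5. Of all genes, 27.3 % were higher in tumour Tregs, 21.3 % in tumour B cells, 13.8 % in nodal Tregs and 11.0 % in nodal B cells. At such nodal shares, no call among 4 genes says little. Cct3 read 105, 102 and 104 CPM (WT label) and 124, 125 and 122 CPM (KO label) in tumour Tregs and 131, 133 and 139.9 and 127, 131 and 147 CPM in nodal Tregs. The B cell libraries read 74.0, 63.1 and 76.9 and 125, 132 and 125 CPM in tumours and 99.97, 109 and 101 and 109, 109 and 106 CPM in lymph nodes. The groups were apart in tumours and overlapped in lymph nodes, with log2 differences of 0.28 ± 0.06 (adjusted p = 1.60e-04) in tumour Tregs and 0.82 ± 0.09 (adjusted p = 6.36e-06) in tumour B cells. Tcp1, Cct2 and Cct5 stood at -0.01, 0.20 and 0.36 in tumour Tregs, where Tcp1 did not pass, and rose by 0.75, 0.80 and 0.67 in tumour B cells. Of 10 further TRiC and prefoldin subunits, 5 rose and 0 fell in tumour Tregs and 6 and 0 in tumour B cells, among them Cct8 at 0.69 in the latter. Lower calls took 27.2 % and 18.8 % of all genes in these 2 comparisons.

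Of the heat shock factor genes, Hsf1 passed in no genotype comparison and Hsf2 in tumour Tregs. Hsf1 read 9.39, 10.9 and 11.4 CPM (WT label) and 10.5, 11.0 and 11.4 CPM (KO label) in tumour Tregs and 12.9, 12.5 and 12.5 and 11.5, 13.2 and 13.2 CPM in nodal Tregs. The B cell libraries read 14.2, 16.3 and 15.6 and 14.5, 16.4 and 9.29 CPM in tumours and 13.8, 19.5 and 11.6 and 11.5, 15.2 and 13.9 CPM in lymph nodes. All 4 pairs of groups overlapped, with log2 differences of 0.09 ± 0.17, -0.01 ± 0.13, -0.20 ± 0.21 and -0.15 ± 0.16, none of which passed. The factor is controlled largely through its protein, which was not measured. Hsf2, which pairs with heat shock factor 1 at some genes, read 11.8, 11.2 and 15.04 and 21.7, 18.8 and 21.2 CPM in tumour Tregs. In nodal Tregs it read 14.8, 12.8 and 12.3 and 13.4, 15.8 and 11.9 CPM. Tumour B cells read 9.80, 7.075 and 9.66 and 11.3, 8.32 and 7.40 CPM. Nodal B cells read 7.23, 6.29 and 6.48 and 5.07, 6.36 and 5.88 CPM. Hsf2 rose in tumour Tregs, by 0.73 ± 0.14 (adjusted p = 4.10e-05), and its lymph node Treg groups overlapped at 0.04 (edgeR).

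The 3 mitochondrial members were higher in both Treg comparisons and in tumour B cells, and only Hspa9 was higher in nodal B cells. Higher calls took 27.3 %, 13.8 %, 21.3 % and 11.0 % of all genes in the usual order. Hspa9, the mitochondrial HSP70 that pulls proteins through the inner membrane, read 438, 432 and 457 CPM (WT label) and 583, 555 and 563 CPM (KO label) in tumour Tregs and 449, 445 and 475 and 572, 577 and 574 CPM in nodal Tregs. For B cells it read 430.3, 416 and 436 and 720.2, 819.7 and 784 CPM in tumours and 522, 504 and 498 and 595, 587 and 592 CPM in lymph nodes. No groups overlapped, and the log2 differences were 0.39 ± 0.04, 0.33 ± 0.04, 0.85 ± 0.07 and 0.21 ± 0.04 (largest edgeR adjusted p = 4.03e-04, in nodal B cells).

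Hspd1 and Hspe1 encode the chaperonin ring of the mitochondrial matrix and its lid, and start head to head on chromosome 1, at 55116994 to 55127402 and 55127291 to 55130466 of GRCm39, with 4.24 and 7.60 % of their exon bases shared. Hspd1 read 387, 365 and 378 CPM (WT label) and 392.5, 408 and 426 CPM (KO label) in tumour Tregs and 385, 381 and 386 and 531, 521 and 529 CPM in nodal Tregs. In B cells it read 284, 279.8 and 284 and 867, 897 and 948 CPM in tumours and 309, 309 and 295 and 298, 295 and 299 CPM in lymph nodes. It rose by 1.67 ± 0.07 (adjusted p = 3.88e-10) in tumour B cells and 0.45 ± 0.04 (adjusted p = 1.05e-09) in nodal Tregs, and did not pass in nodal B cells at -0.04 (edgeR). In tumour Tregs the difference was 0.15 ± 0.05 (adjusted p = 0.00639), a call lost with upper-quartile scaling (adjusted p = 0.0763) and without WT replicate 2 (0.0527).

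Hspe1 read 263, 270.0 and 268 CPM (WT label) and 372, 395 and 376 CPM (KO label) in tumour Tregs and 364, 382 and 353 and 505, 493 and 520.5 CPM in nodal Tregs. B cell libraries gave 386, 324 and 373 and 718, 581 and 572 CPM in tumours and 343, 339.7 and 334 and 287, 354 and 355 CPM in lymph nodes. It rose by 0.55 ± 0.05, 0.46 ± 0.04 and 0.78 ± 0.10 in the first 3 comparisons and stood at -0.03 ± 0.06 in nodal B cells, where the groups overlapped. The differences of ring and lid were close to each other in lymph nodes and farther apart in tumours. Per length, Hspd1 to Hspe1 was 0.788 ± 0.0334 and 0.599 ± 0.0302 in tumour Tregs labelled WT and KO, and 0.440 ± 0.0380 and 0.820 ± 0.131 in tumour B cells (SD, n = 3). The same ratio was 0.586 ± 0.0266 and 0.581 ± 0.0126 in nodal Tregs and 0.501 ± 0.00781 and 0.505 ± 0.0656 in nodal B cells. Among 12 other mitochondrial chaperones and proteases, 3 rose and 5 fell in tumour Tregs, with Grpel1, the matrix nucleotide exchange factor of Hspa9, at 0.81 and the protease gene Lonp1 at -0.40. Among them in tumour B cells 2 rose and 2 fell, and both that rose, Grpel2 at 0.93 and Grpel1 at 0.75, are such exchange factors. Of all genes, 27.3 % rose and 27.2 % fell in tumour Tregs and 21.3 % and 18.8 % in tumour B cells.

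ER members were called in both directions. In tumour Tregs 6 of 10 were higher and 3 lower, against 27.3 % and 27.2 % of all genes, and in nodal Tregs 4 and 1, against 13.8 % and 11.5 %. Tumour B cells had 8 higher and 1 lower, against 21.3 % and 18.8 %, and nodal B cells 3 and 2, against 11.0 % and 10.1 %. The lower shares in Tregs and tumour B cells were thus near or below those of all genes. The medians were 0.28, 0.03, 0.41 and 0.06. The same 3 genes, Hspa5, Dnajb9 and Calr, were higher in all 4 comparisons, and Pdia4 was lower in all 4.

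Hspa5 is the HSP70 of the ER, which also holds the stress sensors inactive. It read 486, 507 and 519 CPM (WT label) and 1500.0, 1632 and 1548 CPM (KO label) in tumour Tregs and 555, 554 and 569 and 896, 887 and 879 CPM in nodal Tregs. Its B cell values were 586, 516 and 547 and 1579.8, 1515 and 1498 CPM in tumours and 639, 617 and 602 and 839, 877 and 852 CPM in lymph nodes. The KO-labelled groups were higher without overlap. They differed by 1.66 ± 0.04, 0.66 ± 0.04, 1.47 ± 0.07 and 0.46 ± 0.04 (largest edgeR adjusted p = 1.60e-09, in tumour B cells), and the tumour groups stood farther apart than the nodal groups of the same cell type. Dnajb9, a J-domain partner of Hspa5 that is a textbook target of the IRE1 branch, had the largest rise of all 40 members in 3 of the 4 comparisons. It read 12.6, 12.4 and 12.6 and 59.7, 64.9 and 67.5 CPM in tumour Tregs and 18.3, 18.4 and 20.1 and 44.9, 39.4 and 47.5 CPM in nodal Tregs under the WT and KO labels. The B cell groups read 29.7, 20.2 and 25.0 and 128, 149 and 148 CPM in tumours and 18.1, 22.2 and 21.4 and 62.5, 55.6 and 53.3 CPM in lymph nodes. Its log2 differences were 2.38 ± 0.10, 1.21 ± 0.10, 2.48 ± 0.12 and 1.47 ± 0.10 (largest edgeR adjusted p = 2.81e-09, in tumour B cells). In nodal B cells Hspa1a came next to it, at 1.45.

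Calr and Canx are the lectin chaperones of glycoprotein folding, the first soluble and the second in the membrane, and both windows hold an ER stress element. Calr read 1684, 1646 and 1763 CPM (WT label) and 2857, 2850.4 and 2672 CPM (KO label) in tumour Tregs and 1458, 1470.2 and 1674 and 2043, 2046 and 1992 CPM in nodal Tregs. B cells had 1461, 1382 and 1446 and 2915, 3329.8 and 3378 CPM in tumours and 2083, 1919 and 1968 and 2499.7, 2382 and 2449 CPM in lymph nodes. It rose by 0.75 ± 0.04, 0.40 ± 0.04, 1.16 ± 0.07 and 0.29 ± 0.04. Canx instead fell in tumour Tregs, from 676, 669.8 and 675 CPM to 478, 479.7 and 480.4 CPM, a log2 difference of -0.46 ± 0.04 (adjusted p = 6.66e-12) by edgeR. It rose by 0.31 in tumour B cells, from 492, 480.1 and 495 to 581, 630.5 and 621 CPM, and did not pass in lymph nodes, at -0.02 in Tregs and 0.02 in B cells.

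Hsp90b1, the HSP90 of the ER and a folding factor for integrins and Toll-like receptors, did not follow Hspa5. It read 2016, 1967 and 2064 CPM (WT label) and 1726, 1809.7 and 1840.2 CPM (KO label) in tumour Tregs and 1945, 1918 and 1860.4 and 1960.4, 1932 and 2001 CPM in nodal Tregs. In B cells the values were 2877, 2619.9 and 2813 and 3546, 3746 and 3703 CPM in tumours and 2919.5, 2909.9 and 2916 and 2380.2, 2727 and 2654 CPM in lymph nodes. It was lower under the KO label in tumour Tregs at -0.14 ± 0.04 (adjusted p = 0.00206) and in nodal B cells at -0.18 ± 0.04 (adjusted p = 0.00227), higher in tumour B cells at 0.40 ± 0.06 (adjusted p = 1.96e-04), and did not pass in nodal Tregs (edgeR). The gene lies at 86526073 to 86541373 of chromosome 10 (GRCm39, minus strand), and 15.7 % of its exon bases are shared with 1810014B01Rik, Gm15344 and Gm54730. The ratio of Hspa5 to Hsp90b1 per length rose from 0.239 ± 0.00796 to 0.830 ± 0.0289 between labels in tumour Tregs, from 0.280 ± 0.0106 to 0.431 ± 0.0103 in nodal Tregs, from 0.189 ± 0.00453 to 0.399 ± 0.0225 in tumour B cells and from 0.203 ± 0.00600 to 0.316 ± 0.0171 in nodal B cells (SD, n = 3).

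**Figure D3:**
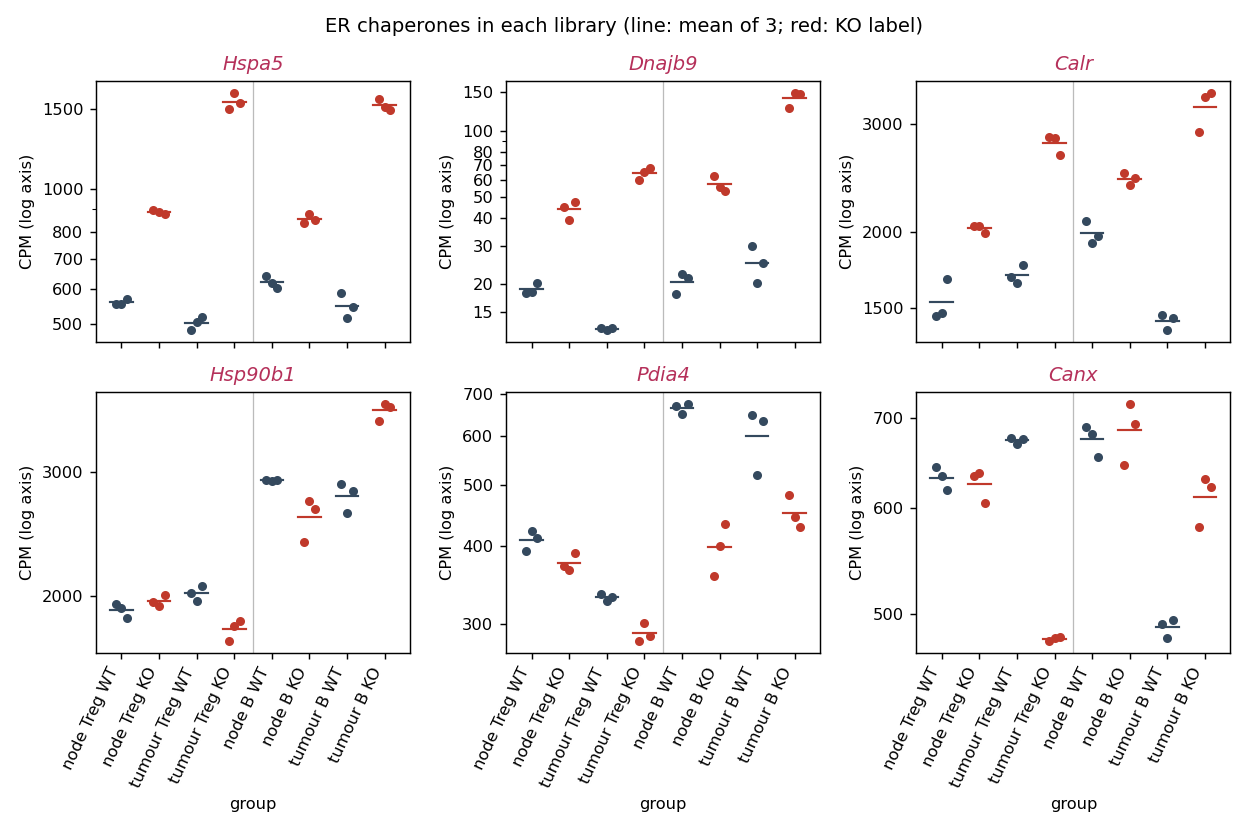
CPM (log axis) of selected ER members in each library of the 8 groups, with points for libraries and a bar for the mean of 3. Hspa5 and Dnajb9 are higher under the KO label in each cell type and tissue, Pdia4 is lower, and Hsp90b1 differs in direction between groups.

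Pdia4 and Pdia6 are disulfide isomerases. Pdia4 read 335, 327 and 331 CPM (WT label) and 282, 302 and 287 CPM (KO label) in tumour Tregs and 391.7, 422 and 412 and 371, 366 and 389 CPM in nodal Tregs. Among B cells it read 647, 518 and 632 and 483, 444 and 428 CPM in tumours and 669.8, 650.3 and 674 and 358, 399.9 and 434 CPM in lymph nodes. Its log2 differences were -0.16 ± 0.05, -0.13 ± 0.05, -0.42 ± 0.09 and -0.75 ± 0.05, called lower in all 4. The call in nodal Tregs (edgeR adjusted p = 0.039) was lost when all 24 libraries were fitted together (0.238) and without KO replicate 1 or 2 or WT replicate 2 (0.167, 0.175 and 0.187). Pdia6 ran from 156 to 287 CPM and passed in tumour B cells only among the 4, at 0.58 ± 0.09 (adjusted p = 1.38e-04). Of the J-domain partners Dnajb11 and Dnajc3, the latter also an inhibitor of PERK, both rose in tumour Tregs (0.31 and 0.25) and tumour B cells (0.39 and 0.42), and neither passed in lymph nodes. Hspa13, a microsomal HSP70 relative, rose in Tregs by 0.60 in tumours and 0.43 in lymph nodes and passed in neither B cell comparison. The 6 members with an ER stress element in the window therefore held both the steady risers Hspa5 and Calr and the members that fell in tumour Tregs, Canx and Hsp90b1.

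Summed counts show the compartments together. Most weight in them falls on abundant members, such as Hsp90ab1 in the cytosol and Hsp90b1 and Calr in the ER. The 21 cytosolic members took 2.38 ± 0.0306 % of counts in tumour Tregs labelled WT and 3.65 ± 0.0132 % in those labelled KO, and 2.42 ± 0.0137 and 3.52 ± 0.0106 % in nodal Tregs (SD, n = 3). In tumour B cells their share was 2.37 ± 0.0279 % under the WT label and 4.68 ± 0.0856 % under the KO label, and in nodal B cells 1.64 ± 0.0321 and 2.16 ± 0.0232 %. The ER members went from 0.596 ± 0.0130 to 0.737 ± 0.0200 % in tumour Tregs, from 0.574 ± 0.0127 to 0.641 ± 0.00316 % in nodal Tregs and from 0.658 ± 0.0253 to 0.896 ± 0.0127 % in tumour B cells, and stood at 0.750 ± 0.0109 and 0.739 ± 0.0142 % in nodal B cells. Mitochondrial members took 0.114 ± 0.00182 and 0.134 ± 0.000988 % in tumour Tregs and 0.112 ± 0.00345 and 0.203 ± 0.00450 % in tumour B cells under the 2 labels. All 3 compartments were thus highest in tumour B cells labelled KO, and the cytosolic share was apart between labels in each cell type and tissue. In bulk RNA a larger share of a gene can come from more RNA per cell or from more cells that carry it, and these cannot be told apart.

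**Figure D4:**
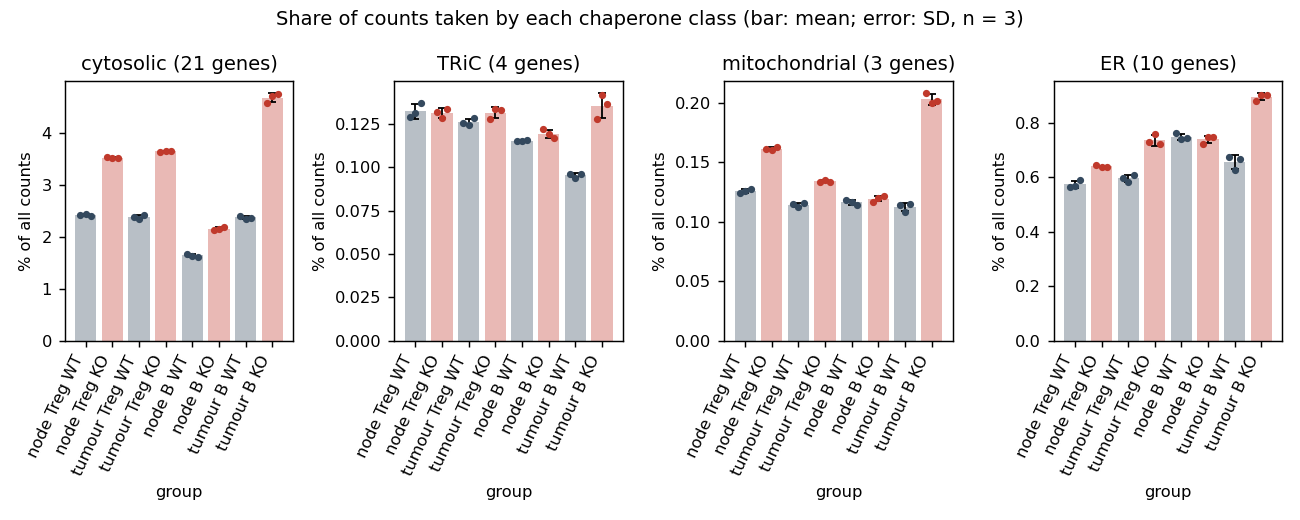
Share of each library's counts (percent) taken by the cytosolic, TRiC, mitochondrial and ER members in the 8 groups, with points for libraries and a bar for the mean of 3. The cytosolic share is higher under the KO label in all 4 pairs, at 4.68 % against 2.37 % in tumour B cells, and the ER share does not separate the labels in nodal B cells.

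Genes around the members were read from lists of the same pathways. Of 10 targets of the PERK and ATF4 branch, 6 of 10 tested were higher and 0 lower in tumour Tregs, 4 and 1 of 8 in nodal Tregs, 4 and 3 of 9 in tumour B cells and 5 and 0 of 7 in nodal B cells. Their medians were 1.14, 0.51, 0.93 and 0.82, and Ppp1r15a, the phosphatase subunit that restores translation, stood at 1.56 ± 0.04, 1.38 ± 0.04, 1.16 ± 0.07 and 1.83 ± 0.04 with Atf4 at 1.77, 1.09, 1.38 and 0.71. Among 8 sensors and factors of the unfolded protein response, 3, 3, 2 and 1 were higher and 1, 0, 3 and 0 lower. For both lists, the shares of all genes called higher were 27.3 %, 13.8 %, 21.3 % and 11.0 %. The shares called lower were 27.2 %, 11.5 %, 18.8 % and 10.1 %. Eif2ak3, which encodes PERK, rose in all 4 (1.64, 0.92, 1.35 and 0.75) and Xbp1, the factor spliced by IRE1, in the first 3 (1.14, 0.20 and 0.34). Splicing of Xbp1 cannot be read from gene counts.

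Of 16 other ER folding genes, 6 of 16 tested rose and 4 fell in tumour Tregs, 3 and 3 of 15 in nodal Tregs, 6 and 3 of 15 in tumour B cells, and 0 and 3 of 14 in nodal B cells. In tumour Tregs the secreted ER factor Manf rose by 0.74, the oxidase gene Ero1a fell to -0.78 and the collagen chaperone gene Serpinh1 to -4.26. For ER-associated degradation, which returns misfolded proteins to the cytosol, the counts of rises and falls in that order were 5 and 2, 1 and 1, 4 and 1, and 1 and 1, and Herpud1 rose by 1.65, 0.75 and 0.73 in the first 3. The melanoma markers given above were lower in the same tumour Treg libraries, and their part in these values was not tested. Of all genes, 27.3 % rose and 27.2 % fell in tumour Tregs and 13.8 % and 11.5 % in nodal Tregs. In B cells these shares were 21.3 % and 18.8 % in tumours and 11.0 % and 10.1 % in lymph nodes. Calls in both directions were thus not particular to these lists.

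The 9 plasma cell markers, which include secretory genes, summed to 103 to 111 CPM in tumour Tregs labelled WT and 259 to 273 CPM in those labelled KO, with none at 0. In tumour B cells they summed to 1051 to 1280.5 CPM under the WT label and 651 to 724.5 CPM under the KO label, also with none at 0. The sum was thus higher in Tregs and lower in B cells under the KO label. In tumour Tregs much of the rise was Jchain alone. Its means there were 12.4 CPM under the WT label and 145 CPM under the KO label. The single markers in tumour B cells were mixed. Jchain (-1.25) and Pou2af1 (-1.21) fell there, Slamf7 (1.02) rose, and the others tested did not pass. ER members were called higher in both comparisons, and the part of these markers in the ER values was not tested.

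In the cytosol, 24 further heat shock genes gave 8 rises and 5 falls of 22 tested in tumour Tregs, 3 and 3 of 22 in nodal Tregs, 9 and 4 of 19 in tumour B cells and 2 and 4 of 20 in nodal B cells. Rises and falls took 27.3 % and 27.2 %, 13.8 % and 11.5 %, 21.3 % and 18.8 %, and 11.0 % and 10.1 % of all genes. Hspa2, a further cytosolic HSP70, rose in all 4 (1.67 ± 0.12, 1.70 ± 0.13, 2.15 ± 0.13 and 0.94 ± 0.15). Of further HSP90 cochaperones, Unc45a rose in the first 3 (0.69, 0.49 and 0.53), Cdc37, which brings kinases to HSP90, in tumour Tregs (0.24) and tumour B cells (0.36), Ptges3 in the same (0.23 and 0.76) and Sugt1 in tumour Tregs (0.18), each named after its values were seen. Others on the list fell. Cdc37l1 was lower in tumour Tregs (-0.71), tumour B cells (-0.45) and nodal B cells (-0.20). Stub1 was lower in tumour Tregs (-0.33) and tumour B cells (-0.56), and Ppid in nodal B cells (-0.22). Fkbp5, an HSP90 immunophilin and a target of the glucocorticoid receptor, fell in all 4 (-1.33 ± 0.05, -1.05 ± 0.05, -2.42 ± 0.26 and -1.95 ± 0.07). The relatives of one chaperone thus took opposite directions, as Hsp90aa1 and Fkbp4 did in tumour B cells.

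The 31 proteasome genes, which degrade what chaperones cannot refold, were higher for 17 and lower for 1 in tumour Tregs and 1 and 4 in nodal Tregs. In B cells 17 were higher and 0 lower in tumours, and 1 and 1 in lymph nodes. The shares of all genes were 27.3 % and 27.2 % in tumour Tregs and 13.8 % and 11.5 % in nodal Tregs. For B cells they were 21.3 % and 18.8 % in tumours and 11.0 % and 10.1 % in lymph nodes. Immediate early genes, which rise within minutes of stimulation and also when tissue is dissociated, were higher under the KO label for 15 of 16, 15 of 16, 14 of 16 and 15 of 15. Their medians were 1.62, 0.97, 1.43 and 1.52, with Fosb at 4.05, 2.64, 4.09 and 2.69. They moved with the genotype label in the same libraries as the heat shock genes, and their part in the members' values was not tested.

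With the WT label alone, the members' levels also differed by tissue and by cell type. In WT-labelled Tregs 7 of 40 members were higher in tumour than lymph node and 20 lower, against 21.4 % and 19.9 % of genes tested. The largest rises were Bag3 at 0.78 ± 0.12 (adjusted p = 1.70e-06) and Hspa1b at 0.49 ± 0.04 (adjusted p = 2.27e-11), and the largest falls Hspb1 at -1.49 ± 0.46 (adjusted p = 0.00831), on 0.542, 1.21 and 0.761 against 1.26, 2.86 and 2.92 CPM, and Dnajb4 at -0.75 ± 0.10 (adjusted p = 3.10e-07). Hsph1 and Dnajb1, which rose with the inducible HSP70 genes between labels, were lower in tumour Tregs here, at -0.39 and -0.30. The melanoma markers summed to 2809 to 3020 CPM in these tumour libraries and to 26.7 to 87.8 CPM in the lymph node libraries. Their part in these differences was not tested. The small calls for Dnaja4, Hspa4, Calr, Cct2 and Hspa8, between -0.12 and 0.15, were lost in 4 to 9 alternatives each. The count of higher members was 4 without tumour replicate 1 or 3 or lymph node replicate 1, and Hspb1 lost its call without tumour replicate 1 or lymph node replicate 2 or 3.

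In WT-labelled B cells 9 members were higher in tumour and 17 lower, against 15.7 % and 14.3 % of genes. The inducible pair led by far, with Hspa1a at 2.63 ± 0.05 (adjusted p = 8.90e-18) and Hspa1b at 2.47 ± 0.05 (adjusted p = 8.90e-18), on per-library values of 2114, 1989 and 2104 CPM in tumour and 331, 338 and 342 CPM in lymph node for Hspa1a. Hspb1 (1.91), Bag3 (1.71), Dnajb1 (1.18) and Hsph1 (0.71) were also higher, while Hspa8 stood at 0.03 without passing. The largest falls were Pdia6, from 274, 263 and 264 CPM in lymph node to 195, 156 and 179.7 CPM in tumour at -0.58 ± 0.07 (adjusted p = 2.36e-06), and Cct3 at -0.52 ± 0.08 (adjusted p = 5.42e-05), and all 4 TRiC members were lower. In the same tumour and lymph node libraries the melanoma markers summed to 759.9 to 878 and to 15.8 to 21.0 CPM, with Mlana and Oca2 at 0 in lymph node. The macrophage and monocyte markers ran from 277 to 293 and from 28.7 to 36.2 CPM, and the plasma cell markers from 1051 to 1280.5 and from 405 to 426 CPM, and the part of any of these was not tested. Calls for Dnajb4, Hspa13 and Hspa5, at 0.27, 0.57 and -0.16, were lost in 4 to 7 alternatives each. Without tumour WT replicate 2, which stood apart from its group, the higher count was 13.

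Between cell types, 25 members were higher in Tregs than in B cells of WT-labelled lymph nodes and 7 lower, against 33.1 % and 30.5 % of genes. The gap was largest for Dnaja4 at 5.01 ± 0.10 (adjusted p = 1.77e-25) and Bag3 at 3.0 ± 0.20 (adjusted p = 1.70e-13). Of the 21 cytosolic members 17 were higher in Tregs with 0 lower, by edgeR, where an unadjusted p under 0.05 and DESeq2 also gave 0 lower. ER members went the other way for 6 of 10, led by Pdia4 at -0.70 ± 0.05 (adjusted p = 1.81e-13) and Hsp90b1 at -0.61 ± 0.04 (adjusted p = 1.36e-13). B cells thus held more of the disulfide isomerases, Hspa5, Hsp90b1, Calr and Dnajb11, and Tregs more Hspa13 (0.96) and Dnajc3 (0.33). The calls for Hspe1 (0.11) and Hspb1 (1.11) were lost in 8 and 5 alternatives.

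Whether the difference between labels itself differed between tumour and lymph node was tested as an interaction, the KO minus WT log2 difference in tumour less that in lymph node. A negative value can thus come from a steeper fall in tumour. In Tregs 12 members were positive and 5 negative, against 16.8 % and 17.3 % of genes, and ER members held the largest values on both sides. Dnajb9 was at 1.17 ± 0.14 (adjusted p = 1.37e-08) and Hspa5 at 0.99 ± 0.06 (adjusted p = 5.51e-17), whereas Canx was at -0.45 ± 0.06 (adjusted p = 4.06e-08) and Hspd1 at -0.31 ± 0.06 (adjusted p = 1.06e-04). The stress-inducible genes Hspa1a, Hspa1b and Hsph1 stood at 0.11 ± 0.06, 0.02 ± 0.05 and -0.01 ± 0.06 without passing.

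In B cells 30 members were positive and 2 negative, against 12.4 % and 8.55 % of genes. Dnaja4, beside which the T cell markers were given above, was at 2.91 ± 0.39 (adjusted p = 1.31e-05), followed by Hsph1 at 1.73 ± 0.07 (adjusted p = 9.19e-13), Hspd1 at 1.70 ± 0.08 (adjusted p = 1.65e-12), Dnaja1 at 1.55 ± 0.09 (adjusted p = 6.76e-11) and Hsp90aa1 at 1.27 ± 0.08 (adjusted p = 1.15e-10). The only negative calls were Hspa1b at -0.53 ± 0.07 (adjusted p = 4.17e-06) and Hspa1a at -0.46 ± 0.06 (adjusted p = 1.76e-05), whose levels in tumour B cells labelled WT were above those of every other WT-labelled group. The count was 30 positive and 3 negative without the 2 tumour B cell libraries that stood apart, KO replicate 1 and WT replicate 2. These interactions share the libraries of the comparisons above and are not separate evidence.

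**Figure D5:**
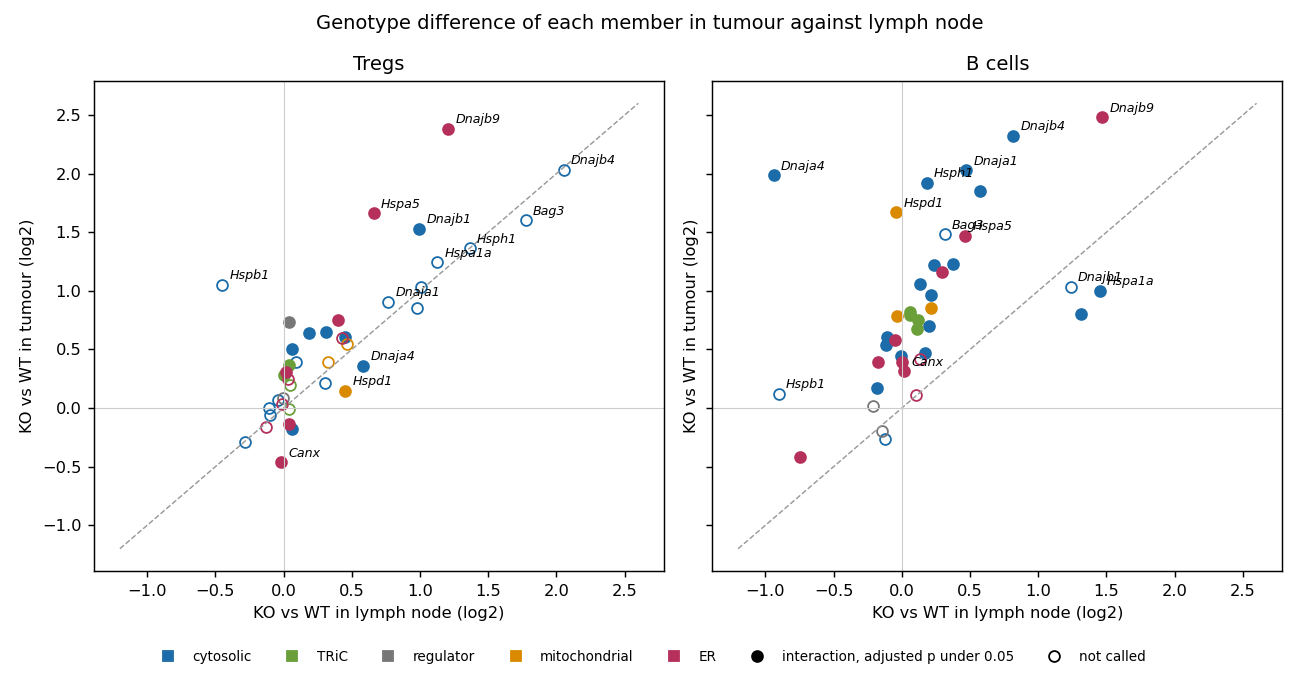
Log2 fold change between labels in lymph node (x axis) and in tumour (y axis) for the 40 members, in Tregs and in B cells, with the diagonal of equal change and colours for compartments. In B cells most members lie above the diagonal, with Hsph1 at 0.18 and 1.92, and in Tregs Hspa5 and Dnajb9 lie above it.

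The genes outside the list whose levels were most like the mean log2 CPM of Hsph1, Dnajb1, Hspa8 and Hsp90aa1 over the 24 libraries were, in order, Gm12346 (Pearson r = 0.966), Suco (0.966), Gm15542 (0.951), Nr1d2 (0.936) and Dedd2 (0.932). Among the members themselves and outside those 4, likeness to the same mean was highest for Dnaja1 at 0.956 and Dnajb4 at 0.902. It reached 0.855 for Hspa5 and 0.868 for Hspd1, and was negative for Chordc1 at -0.185, Canx at -0.323, Pdia4 at -0.377 and Fkbp4 at -0.503. These are descriptions over libraries that share groups and depth, and the groups differ in these genes.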

How the data were processed

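Per the labels' protocols, RNA of the sorted cells was isolated in TRIzol and prepared with a stranded mRNA kit. The deposited values are raw read counts per gene, without normalization, with coordinates and exon length per gene. The submitters' processing notes name fastp 0.23.4, STAR 2.5.3a, featureCounts and the builds GRCh38 and GRCm39. Coordinates in the deposited table are given as GRCm39. The strand setting and the treatment of multi-mapping remain not given in the sources used here. Of counts from 1 to 10, 69.7 to 75.8 % were even, as where mates are counted singly, so counts need not be independent fragments.

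Each comparison used edgeR 4.0.16 in R 4.3.3 on its own libraries (interactions: the 12 of a cell type) with TMM scaling, filterByExpr and the two-sided quasi-likelihood F test, without a replicate block. Adjusted p-values are by Benjamini-Hochberg over all genes tested, with calls under 0.05, from edgeR unless DESeq2 (1.42.0) is named. Standard errors were taken as the log2 fold change divided by the square root of F. Levels are CPM on TMM totals over all 24 libraries, and a rise or fall of levels is not adjusted for cell makeup. Alternatives were other scalings, no filter, immunoglobulin genes left out, 1 fit of all libraries, DESeq2, a replicate block and each library left out. Further fits left out the tumour B cell libraries that stood apart. The test was also run on simulated counts. RefSeq promoters were on GRCm38.p6, and sites touching an exon were found with GENCODE vM21.

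The 40 members, the gene lists and the tests were chosen with earlier results of these data known. All members are reported, 22 set ones with every library, plus the 2 largest called changes each way per comparison and at most 3 genes per list, by smallest p. Values for other members in a comparison, and for the further HSP90 cochaperones, were added without such a rule.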

Additional observations from a re-analysis of the deposited data

Results flagged for a closer look

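The difference between labels differed between tumour and lymph node for 17 members in Tregs and 32 in B cells. This was by edgeR's test of the interaction itself at an adjusted p under 0.05. Of all genes tested, 16.8 % were called positive and 17.3 % negative in Tregs. In B cells these shares were 12.4 % and 8.55 %. Values are the KO minus WT log2 difference in tumour less that in lymph node.

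In Tregs the ER genes were Dnajb9 (1.17), Hspa5 (0.99), Calr (0.34), Dnajb11 (0.28), Hsp90b1 (-0.19) and Canx (-0.45). Positive cytosolic genes were the J-domain genes Dnajb1 (0.53), Dnajb6 (0.45) and Dnaja2 (0.44), then Hspa8 (0.33) and Hsp90ab1 (0.15), with the TRiC subunits Cct5 (0.32) and Cct3 (0.27) and the factor Hsf2 (0.68). Dnaja4 (-0.23), Fkbp4 (-0.25) and the mitochondrial Hspd1 (-0.31) were negative. The calls for Hsp90ab1, Cct3 and Dnaja4 were lost when all 24 libraries were fitted together (adjusted p = 0.088, 0.0513 and 0.094), and that for Fkbp4 with DESeq2 (0.0537) and without tumour KO or WT replicate 3 (0.0985 and 0.063).

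In B cells the HSP70 and HSP110 genes were Hsph1 (1.73), Hspa4l (0.92), Hspa8 (0.84), Hspa4 (0.74), Hspa1a (-0.46) and Hspa1b (-0.53), and both HSP90 genes passed, Hsp90aa1 (1.27) and Hsp90ab1 (0.98). J-domain genes were Dnaja4 (2.91), Dnaja1 (1.55), Dnajb4 (1.5), Dnaja2 (0.49) and Dnajb6 (0.29). Cochaperones were St13 (0.70), Stip1 (0.65), Ahsa1 (0.44) and Chordc1 (0.34), and TRiC subunits Cct3 (0.75), Cct2 (0.73), Tcp1 (0.62) and Cct5 (0.55). The mitochondrial Hspd1 (1.70), Hspe1 (0.81) and Hspa9 (0.62) passed, as did the ER genes Dnajb9 (1.0), Hspa5 (1.0), Calr (0.86), Pdia6 (0.62), Hsp90b1 (0.56), Dnajb11 (0.38), Pdia4 (0.32) and Canx (0.28). The calls for Pdia4 and Chordc1 were lost in 10 and 7 alternatives, among them upper-quartile scaling (adjusted p = 0.0858 and 0.0568).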

How the results depend on the processing

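Of 132 counts of called members recomputed in alternatives other than leaving out 1 library, 128 stayed within 1.5 times. These include the fits without the tumour B cell libraries that stood apart. Of 132 counts with 1 library left out, 125 stayed within 1.5 times. No count or member's difference changed direction among those called. The exceptions were small counts. Lower members in nodal Tregs, 2 in the fit reported, were 4 with upper-quartile scaling, 1 with all 24 libraries in 1 fit and 1 to 3 with 1 library left out. Lower members in nodal B cells, 3 as reported, were 6 with upper-quartile scaling. With 1 library left out, lower members in tumour B cells ran from 1 to 2 (1 without KO replicate 2), and higher members between tissues in WT-labelled Tregs from 4 to 7. Leaving out both tumour B cell libraries that stood apart gave 33 higher and 2 lower members in tumour B cells, an alternative that for the interaction was chosen after seeing the data. The cause of these shifts was not tested. Hspb1, Hsf1 and Hsf2 are limited by depth.

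Replicate numbers showed no pairing in the comparisons of 2 groups, where deviations of same-numbered libraries correlated between -0.09 and 0.072. Tumour with lymph node under the KO label, and Tregs with B cells outside WT-labelled lymph nodes, were not examined. Pairing there is not excluded. With the replicate block, lower members in nodal Tregs numbered 1, and the other counts stayed within 1.5 times.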
